A study of Homo sapiens with 8 samples.

Results

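Mucins are large glycoproteins, densely decorated with O-linked sugars, that coat wet epithelia, and 10 genes of this epithelial barrier are described here: the gel-forming mucin genes MUC2, MUC5AC and MUC5B, the membrane-bound mucin genes MUC1, MUC4, MUC13, MUC16 and MUC20, the trefoil peptide gene TFF1 and the polymeric immunoglobulin receptor gene PIGR. They were chosen by name, with earlier results of these data known, so counts over them are descriptions. Of the 10, 9 had probe sets annotated to 1 gene symbol, 32 of 45278 such probe sets in all, and each gene was read from its probe set with the highest mean over the 8 arrays, out of 18244 genes. MUC5AC had no such probe set and was not analysed here.

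RNA from 2 human lung adenocarcinoma cell lines was measured on 8 arrays. By the labels HCC827 has an activating mutation of EGFR and A549 lacks one. Each line was grown in 3D, from 100000 cells on a collagen scaffold for 14 days, or in 2D, from 200000 cells on culture dishes for 7 days. Cultures received gefitinib, which blocks the EGFR kinase, at 1 µM, or no inhibitor. In 3D gefitinib was present for the last 3 days, after 11 days of growth. The protocol also names a start after 4 days, again for 3D, which was read here as the 2D start. Each of the 8 conditions had 1 array, so no condition was replicated. The 3D samples were lysed with beads and purified with a micro kit and the 2D samples with a mini kit, so culture, days of growth and RNA preparation cannot be told apart.

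Gel-forming mucins are secreted from granules of goblet and gland cells and form the mucus that traps inhaled particles. MUC5AC and MUC5B are the main gel-forming mucins of the airways, and MUC2 is that of the intestine. Trefoil peptides such as TFF1 are secreted together with mucins. Membrane mucins are anchored in the apical membrane, where they form a glycan layer close to the cell, can be shed by proteases and, for MUC1 and MUC4, can associate with receptors of the EGFR family. PIGR carries dimeric IgA from the basolateral to the apical side of an epithelial cell, where its outer part is cut off and released with the antibody as secretory component.

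The promoters of MUC1, MUC4, MUC16 and PIGR, the 4 genes called higher in 3D over both lines for which a sequence was at hand, are shown as the 250 bases before the annotated gene start (RefSeq, GRCh38.p14), each 5′ to 3′ on the strand of its gene. Capitals mark matches to 8 short motifs that were searched on both strands: the E-box as CACGTG, the core of the hypoxia-factor site, contained in the E-box, as ACGTG, the AP-1 site as TGACTCA, the GC box as GGGCGG, the TATA box as TATAAA, the FOXA site as TGTTTNC, the STAT site as TTCNNNGAA and the NF-kB type of site as GGANTTTCC.
MUC1, chr1:155192916-155193165, minus strand: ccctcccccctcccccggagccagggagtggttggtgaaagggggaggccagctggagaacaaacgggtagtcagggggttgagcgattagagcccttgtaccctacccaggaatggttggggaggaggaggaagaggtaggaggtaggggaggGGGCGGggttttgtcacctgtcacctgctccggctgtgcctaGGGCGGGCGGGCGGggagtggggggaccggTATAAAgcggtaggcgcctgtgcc
MUC4, chr3:195811930-195812179, minus strand: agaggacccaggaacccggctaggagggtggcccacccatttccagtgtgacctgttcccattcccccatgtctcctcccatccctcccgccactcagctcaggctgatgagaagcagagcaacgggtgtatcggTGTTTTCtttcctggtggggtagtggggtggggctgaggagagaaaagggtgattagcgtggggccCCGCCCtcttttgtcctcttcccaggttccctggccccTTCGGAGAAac
MUC16, chr19:9065752-9066001, minus strand: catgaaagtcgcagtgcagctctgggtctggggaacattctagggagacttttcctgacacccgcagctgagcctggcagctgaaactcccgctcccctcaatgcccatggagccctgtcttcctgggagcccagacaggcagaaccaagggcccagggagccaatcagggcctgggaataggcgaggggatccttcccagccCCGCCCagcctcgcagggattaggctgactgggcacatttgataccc
PIGR, chr1:206946467-206946716, minus strand: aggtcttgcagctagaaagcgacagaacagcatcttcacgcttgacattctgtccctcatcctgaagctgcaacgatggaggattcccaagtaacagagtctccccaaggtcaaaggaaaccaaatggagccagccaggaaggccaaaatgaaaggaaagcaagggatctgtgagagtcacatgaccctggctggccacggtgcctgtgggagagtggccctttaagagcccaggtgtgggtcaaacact

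The MUC1 window held 4 GC boxes, 3 of them overlapping, and a TATA box whose first base lies 24 bases before the start. The MUC4 window held a GC box, a FOXA match and a STAT match. The MUC16 window held a GC box, and the PIGR window held none of the 8 motifs. Among 27305 promoter windows of the same length, GGGCGG occurred in 42.3%, TATAAA in 11.1%, TGTTTNC in 15.6% and TTCNNNGAA in 6.78%. CACGTG occurred in 6.49%, ACGTG in 18.7%, TGACTCA in 4.16% and GGANTTTCC in 1.47%. The matches are letters in these windows only. G and C made up 66.0% of the MUC1 window, 60.4% of MUC4, 61.6% of MUC16 and 52.8% of PIGR, against a median of 58.0% over all windows.

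Before the values of these genes, 2 facts about the arrays bear on them. In HCC827 the genes that EGFR signalling switches on moved in opposite directions in the 2 cultures. DUSP6, a phosphatase gene induced by ERK, differed by -3.32 log2 units in 3D (gefitinib minus control), whereas in 2D the array labelled gefitinib was 3.64 higher than the array labelled control. ETV5 and CCND1 did the same (-1.79 and -1.78 in 3D, 2.52 and 2.51 in 2D). The HCC827 2D arrays are therefore named by their labels, and gefitinib results of that line are given with and without them. The other fact concerns RNA integrity: the 3' minus 5' signal of the actin control was 2.64 and 2.34 on the HCC827 3D arrays and 1.74 and 1.67 on the A549 3D arrays, against -0.14 to -0.05 on the 4 2D arrays. The GAPDH control differed likewise, 0.54 to 1.57 in 3D against -0.04 to 0.01 in 2D. These values move with culture in every comparison of 3D with 2D that follows, and their part in the results was not tested.

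Signals are log2 values after robust multi-array averaging (RMA), so a difference of 1 is a 2-fold change of signal. Since probes differ in brightness, levels are compared between arrays and not between genes. A gene was tested where it lay above the array median on at least 2 arrays, which kept 11926 genes and 8 of the 9 measured here. MUC2 lay above it on 1 array and was set aside. PIGR passed through its 2 HCC827 3D arrays alone, MUC4 through the 4 HCC827 arrays, MUC20 through 3 HCC827 arrays and TFF1 through the 4 A549 arrays, so these 4 genes were bound to differ between lines or cultures once they were tested, and counts over the tested genes are descriptions. Background was read as the mean of 23 background control probe sets, 6.63 to 6.77 on the 8 arrays, a rough measure since single sets lay between 5.35 and 11.43. MUC4 lay below it on all 4 A549 arrays, PIGR on all 4 A549 arrays and 1 of the 2 HCC827 2D arrays (0.02 above it on the other), and MUC20 on 3 of the 4 A549 arrays. TFF1 in HCC827 lay at most 0.36 above it. Against such signals a fold is given as a lower bound, the mean of the brighter arrays over the higher of the background mean and the signal on each dim array, and fitted differences there are not measured sizes. A change counts as called at an adjusted p under 0.05 (limma, Benjamini-Hochberg over all tested genes). With 1 array a condition, the spread in the test is the change of the gefitinib difference between 3D and 2D within a line, not replicate scatter, and the ± values are standard errors of that fit. The arrays hold RNA of whole cultures, so more cells with a transcript and more transcript per cell cannot be told apart.

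**Figure D1:**
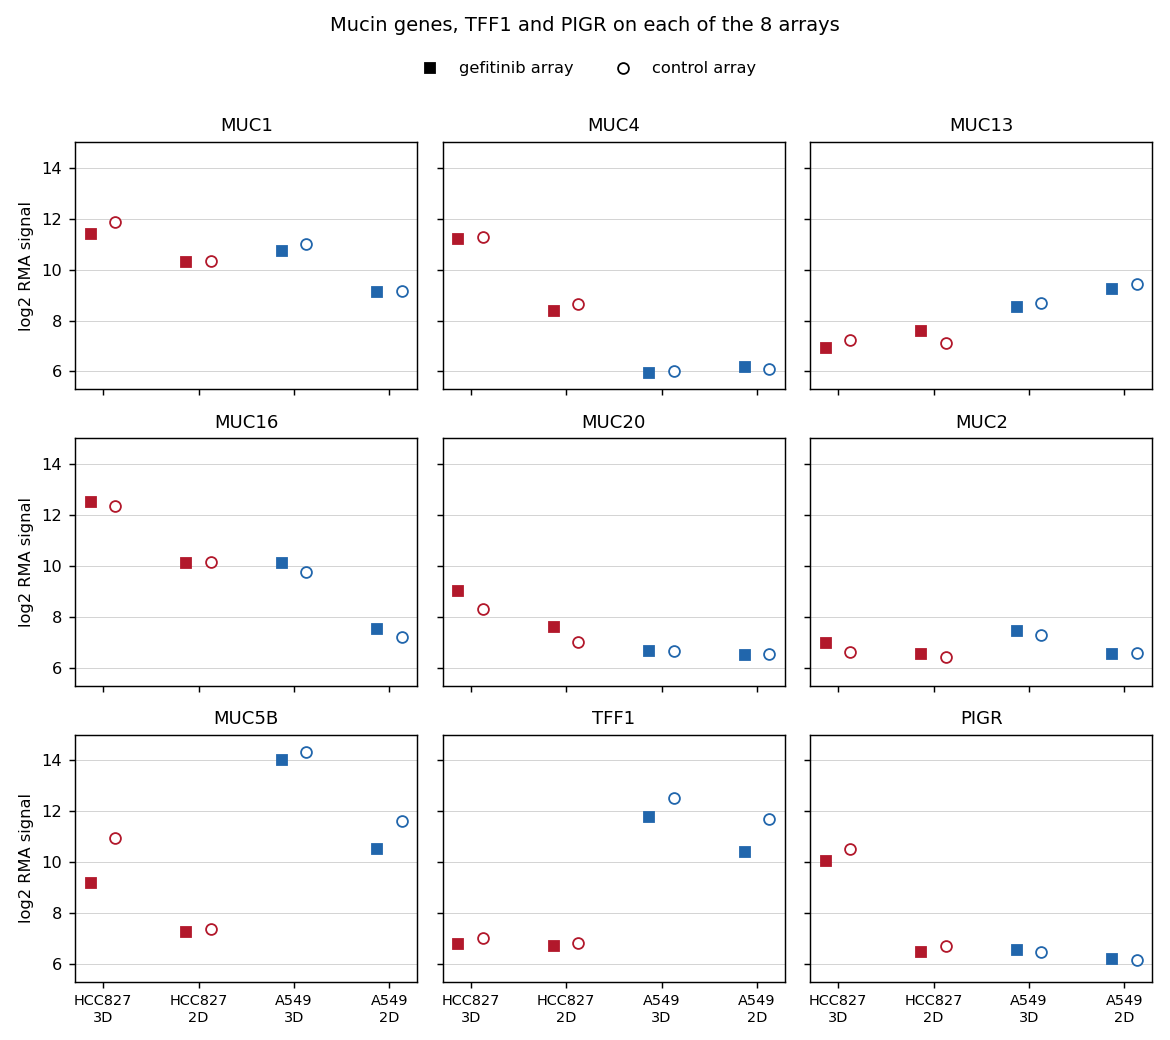
Log2 RMA signal (vertical axis) of the 9 measured genes on each array, by line and culture, with gefitinib arrays as filled squares and control arrays as open circles. TFF1 stands highest on the A549 arrays and MUC5B on the A549 3D arrays, MUC4, MUC16, MUC20 and PIGR on the HCC827 3D arrays. Each gene is to be read across its own panel only.

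The lines differed in the levels of these genes. Among the gel-forming mucins and their partner, MUC5B and TFF1 were higher in A549. MUC5B had log2 signals of 9.18 and 10.94 in HCC827 3D (gefitinib and control) and 7.25 and 7.38 in HCC827 2D, against 14.01 and 14.32 in A549 3D and 10.52 and 11.59 in A549 2D. The order of its levels was A549 3D, A549 2D, HCC827 3D and HCC827 2D, with the ranges of the middle conditions overlapping. Averaged over cultures and treatments, MUC5B was lower in HCC827 than in A549 (log2 difference -3.92 ± 0.32, adjusted p = 0.00174).

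TFF1, the trefoil peptide, had 6.79 and 7.00 in HCC827 3D and 6.71 and 6.82 in HCC827 2D, below the array median throughout. In A549 it had 11.75 and 12.52 in 3D and 10.40 and 11.68 in 2D. Its line difference was fitted at -4.76 ± 0.12 (adjusted p = 1.82e-04), not a measured size, since TFF1 in HCC827 lay at most 0.36 above background. MUC2, the intestinal gel-forming mucin, stayed low everywhere, with 6.96 and 6.62 in HCC827 3D, 6.54 and 6.43 in HCC827 2D, 7.43 and 7.29 in A549 3D and 6.53 and 6.59 in A549 2D. It was not tested, and its HCC827 2D and A549 2D ranges overlapped.

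Of the membrane mucins, 4 were higher in HCC827 and 1, MUC13, was higher in A549. MUC4, the membrane mucin whose extracellular part carries EGF-like repeats, had 11.20 and 11.28 in HCC827 3D and 8.36 and 8.67 in HCC827 2D, against 5.94 and 6.0 in A549 3D and 6.19 and 6.09 in A549 2D. All 4 A549 values lay below the background mean, so MUC4 was at least 9.01-fold higher in HCC827 (adjusted p of the fitted difference = 1.52e-04). MUC16, which carries the CA125 antigen, had 12.50 and 12.36 in HCC827 3D and 10.09 and 10.16 in HCC827 2D. Its A549 values were 10.12 and 9.77 in 3D and 7.53 and 7.19 in 2D, so that A549 in 3D overlapped with HCC827 in 2D. Its line difference was 2.63 ± 0.09 (adjusted p = 3.04e-04).

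MUC1, the broadly expressed epithelial membrane mucin, was present in both lines. It had 11.38 and 11.88 in HCC827 3D and 10.32 and 10.35 in HCC827 2D, against 10.73 and 11.01 in A549 3D and 9.13 and 9.18 in A549 2D, and no 2 conditions overlapped. Its line difference was the smallest of the 8, at 0.97 ± 0.12 (adjusted p = 0.00496), and without any 1 of the 4 A549 arrays it was not called (adjusted p 0.0580 to 0.0736). MUC20, a small membrane mucin known from kidney, had 9.0 and 8.29 in HCC827 3D and 7.61 and 7.02 in HCC827 2D, against 6.66 and 6.65 in A549 3D and 6.48 and 6.52 in A549 2D (at least 2.41-fold higher in HCC827, adjusted p of the fitted difference = 5.41e-04).

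MUC13, a membrane mucin of the gut, ran the other way. It had 6.90 and 7.24 in HCC827 3D and 7.61 and 7.13 in HCC827 2D, which overlapped, against 8.54 and 8.70 in A549 3D and 9.23 and 9.43 in A549 2D (difference -1.75 ± 0.16, adjusted p = 0.00216).

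PIGR, the IgA transporter, had 10.04 and 10.52 in HCC827 3D but 6.49 and 6.69 in HCC827 2D, and 6.54 and 6.46 in A549 3D and 6.20 and 6.16 in A549 2D. Only the 2 HCC827 3D arrays lay above their array median, and HCC827 2D overlapped with A549 3D. The line difference was called (adjusted p = 3.36e-04), and within 3D PIGR was at least 12.2-fold higher in HCC827. Within 2D both lines were at background, and no fold is given.

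All 8 tested genes were thus called between the lines, 5 higher and 3 lower in HCC827, where 22.0% of all tested genes were called higher and 26.1% lower. MUC4, MUC20 and PIGR passed the filter through HCC827 arrays alone and TFF1 through A549 arrays alone, so this count is a description. CDKN2A, which is deleted in A549, checks the line labels and lay between 12.45 and 13.17 in HCC827 and between 6.52 and 6.85 in A549.

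Growth on the scaffold went with higher signals of most of these genes. Over both lines, 7 of the 8 tested genes were called higher in 3D than in 2D, where 30.4% of all tested genes were called higher. MUC5B rose by 2.93 ± 0.32 (7.62-fold, adjusted p = 0.00565) and ranked 3rd of 11926 genes. MUC16 rose by 2.44 ± 0.09 (5.44-fold, adjusted p = 0.00418) and ranked 9th. MUC1 rose by 1.51 ± 0.12, and all 3 were higher in each of the 4 pairs of arrays. The called rises of PIGR, MUC4, MUC20 and TFF1 (0.61 ± 0.12) average a line with signal and a line at or near background and are given line by line. Leaving out any 1 of the 4 A549 arrays, which leaves HCC827 alone to set the spread, ended all 7 calls (adjusted p 0.0812 to 0.165) and took the count over all genes to 0. The exception was MUC13, at -0.50 ± 0.16 (adjusted p = 0.0576), which was lower in 3 of 4 pairs as labelled and in 4 of 4 with the labels of the HCC827 2D arrays exchanged.

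**Figure D2:**
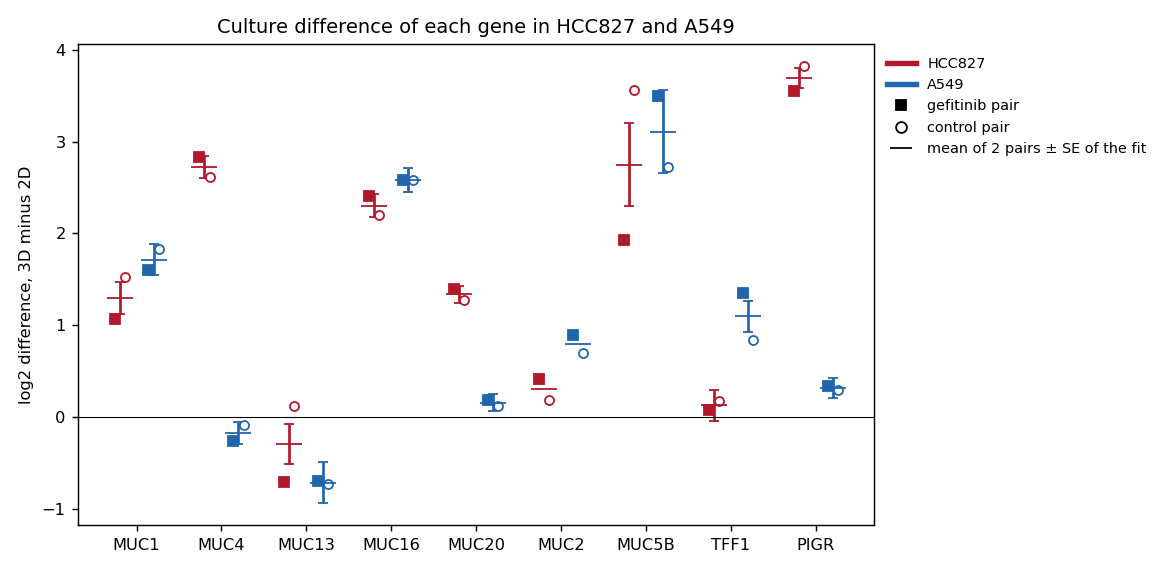
Log2 difference between 3D and 2D (vertical axis) for each gene, HCC827 left and A549 right within each gene. Squares are pairs of gefitinib arrays, circles pairs of control arrays, and dashes with bars the mean of both pairs ± the standard error of the fit (MUC2 was not tested and has no error). MUC5B, MUC16 and MUC1 are above 0 in both lines, PIGR, MUC4 and MUC20 mainly in HCC827, and TFF1 mainly in A549.

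In HCC827, 6 of the 8 were called higher in 3D, against 19.7% of all tested genes. Of all HCC827 culture calls 58.9% were higher in 3D, and 69.7% after quantile normalization. PIGR was at least 11.97-fold higher in 3D, where it averaged 10.28, than in 2D, where its 6.59 was at background (adjusted p of the fitted difference = 0.0106). It passed the filter through the 3D arrays alone, so it had to differ. MUC4 rose by 2.73 ± 0.12 (6.61-fold, rank 14), and MUC20, its neighbour on chromosome 3, by 1.34 ± 0.09 (2.52-fold). MUC16 rose by 2.30 ± 0.13 and MUC1 by 1.30 ± 0.17. Without any 1 of the A549 arrays the 6 adjusted p-values lay between 0.0865 and 0.0909.

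MUC5B also rose in HCC827, by 2.75 ± 0.45 (adjusted p = 0.0185), but its pairs were far apart. The rise was 1.93 between the gefitinib arrays and 3.57 between the control arrays, the 10th highest of all genes in the control pair. TFF1 stayed low in both cultures (0.13 ± 0.17, adjusted p = 0.586), and MUC13 differed by -0.70 between the gefitinib arrays and 0.12 between the control arrays (mean -0.29 ± 0.22, adjusted p = 0.357). MUC2, not tested, differed by 0.42 and 0.19.

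In A549, 4 of the 8 were called higher in 3D, against 16.3% of all tested genes. MUC5B rose by 3.11 ± 0.45 (8.64-fold, rank 7, adjusted p = 0.0228), with 3.49 between the gefitinib arrays and 2.73 between the control arrays. MUC16 rose by 2.58 ± 0.13 (5.99-fold, adjusted p = 0.0177), by the same 2.59 and 2.58 in its pairs. MUC1 rose by 1.71 ± 0.17 (3.28-fold) and TFF1 by 1.10 ± 0.17 (2.14-fold, adjusted p = 0.0243). Without any 1 of the A549 arrays the 4 adjusted p-values lay between 0.392 and 0.444.

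MUC4 and PIGR lay below the background mean in both A549 cultures, and MUC20 lay at it, so no size is given for them, and none was called (adjusted p = 0.349, 0.108 and 0.284). MUC13 differed by -0.72 ± 0.22 (adjusted p = 0.0861). MUC2 differed by 0.90 and 0.70 without a test. The spread in these errors comes in part from the HCC827 2D pair. In a fit without the HCC827 2D arrays, whose spread comes from A549 alone, 64.6% of all tested genes were called between A549 cultures, and MUC13 (-0.72 ± 0.09, adjusted p = 4.00e-05) was then called too. So was PIGR (adjusted p = 0.00794), on signals below the background mean.

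Whether the culture difference itself differed between the lines was tested as an interaction, in which 0% of the tested genes were called and 1696 had an unadjusted p under 0.05. PIGR and MUC4 both had an adjusted p of 0.0974, the smallest of any gene. Their signals were at background in A549, and that of PIGR in HCC827 2D too, so no size of the difference between lines is given. MUC20 (adjusted p = 0.135), at background in A549, and TFF1 (adjusted p = 0.228), near background in HCC827, also had unadjusted p-values under 0.05. Without any 1 HCC827 array, when A549 alone sets the spread, MUC4, MUC20 and TFF1 were called. So was PIGR without either HCC827 2D array. For MUC4, MUC20 and PIGR the spread in these fits is scatter at background and does not measure the spread of their HCC827 signals. MUC1, MUC5B and MUC13 were each called in 2 of these 4 fits (lowest adjusted p 0.00909, 0.00451 and 0.00193). Without any 1 A549 array none was (adjusted p of at least 0.999). The intervals of the genes that rose in both lines were -0.77 to 0.21 for MUC16, -1.07 to 0.24 for MUC1 and -2.07 to 1.35 for MUC5B, in the fit over all 8 arrays.

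Agreement between probe sets was examined for the culture difference. Of the 32 probe sets, 23 passed the filter. Over both lines 20 were called higher in 3D and 1 lower, where 25.4% and 28.8% of all 26782 tested probe sets were called higher and lower. In HCC827 19 were called higher (17.6% of all) and in A549 15 (14.8% of all). Probe sets of a gene can share transcript sequence and are not replicates. Sets that passed the filter through 1 line or culture alone were bound to differ, so these counts are descriptions.

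MUC1 had 13 probe sets, of which 11 were tested and 10 called higher in each line. The tested differences ran between 0.18 and 1.36 in HCC827 and between 0.16 and 2.07 in A549, and the 1 tested set that was not called had a mean of 7.97. All MUC1 sets but 1 carry the suffix of probe sets that may cross-hybridise. MUC5B had 3 tested sets, all called in both lines, with 1.94 to 2.76 in HCC827 and 3.11 to 3.23 in A549. Its 4th set had a mean of 6.14 and differed by 0.05 and 0.06.

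For PIGR, 3 of 4 sets were tested and all 3 were called in HCC827, with fitted differences of 2.29 to 3.69. Each of the 3 lay above the array median on only 2 arrays. The set used for the gene did so on its HCC827 3D arrays alone and was at background in 2D. These calls were therefore set by the filter and are no check on each other, and the differences are not measured sizes. In A549 the same 3 differed by 0.05 to 0.32 and none was called. The 4th PIGR set, below the filter, differed by 0.51 in HCC827 and 0.12 in A549. MUC20 had 1 tested set, and its 3 others lay below the filter with 0.46 to 0.64 in HCC827. MUC20 has closely related sequences near it on chromosome 3 (background knowledge), and signal from them could not be told apart from its own. The 2nd MUC4 set lay below the array median on every array (0.28 in HCC827).

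The 2 MUC13 sets disagreed. The brighter gave -0.50 over both lines and was called lower in the fit over probe sets (adjusted p = 0.0470), and the other gave 0.13 (adjusted p = 0.284). No direction is therefore given for MUC13. MUC16, MUC2 and TFF1 had 1 probe set each, so that their values have no such check.

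**Figure D3:**
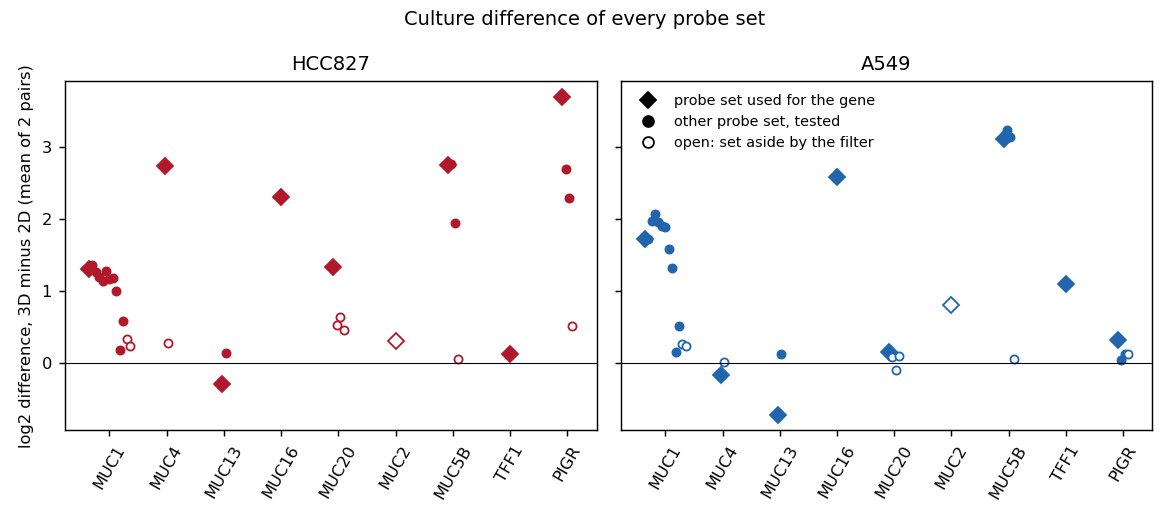
Log2 difference between 3D and 2D, averaged over both treatments (vertical axis), for all 32 probe sets in HCC827 (left) and A549 (right). Diamonds are the probe sets used for the genes, filled symbols passed the filter and open symbols did not. The tested MUC5B sets sit together in A549, and the tested PIGR sets spread between 2.29 and 3.69 in HCC827. The sets that were not tested reach 0.64 in HCC827 and 0.80 in A549.

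Other genes of mucus and of PIGR biology were followed through 6 lists. Only 2 of the 10 other measured mucin genes were above the filter, MUC12 and OVGP1. MUC12 was called higher in 3D in A549 (adjusted p = 0.0177), with 7.70 and 7.67 in 3D against 6.61 and 6.43 in 2D, below the background mean. In HCC827 it lay between 6.41 and 6.81, at background, and was not called (adjusted p = 0.114). Of 13 tested trefoil and goblet granule genes, 3 were called higher in 3D and 0 lower in HCC827, and 7 and 0 in A549. Of all tested genes 19.7% and 13.7% were called higher and lower in HCC827, and 16.3% and 6.01% in A549. The list's median was 0.27 in HCC827 and 0.54 in A549, against 0.08 and 0.13 over all tested genes.

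LCN2, an antibacterial siderophore binder, rose by 2.22 ± 0.22 in HCC827 and by 1.12 ± 0.22 in A549. FCGBP, a mucin-like protein of mucus, rose in A549 by 1.52 ± 0.20. It was also called higher in 3D in HCC827, where its 2D signals of 6.61 and 6.57 lay below the background mean. TFF3, the neighbour of TFF1 on chromosome 21, was called higher in 3D in A549 (adjusted p = 0.0177). It had 7.99 and 7.94 there in 3D against 6.33 and 6.60 in 2D, below the background mean. In HCC827 it lay between 6.18 and 6.55, below the background mean on every array, and was not called (adjusted p = 0.132). BPIFA1, a secreted airway defence protein, rose in A549 by 1.88 ± 0.34. Between lines 2 of 13 were called higher and 9 lower in HCC827, where 22.0% and 26.1% of all tested genes were. The lower ones included FCGBP (-5.10 ± 0.14), the disulfide isomerase AGR2 that helps fold mucins (-3.79 ± 0.53), the protease inhibitor SLPI (-3.52 ± 0.10) and BPIFB1 (-2.74 ± 0.11). FCGBP in HCC827 2D lay below the background mean, and BPIFB1 in HCC827 lay near it (6.66 to 7.12). The fitted differences of both between lines are therefore not measured sizes.

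**Figure D4:**
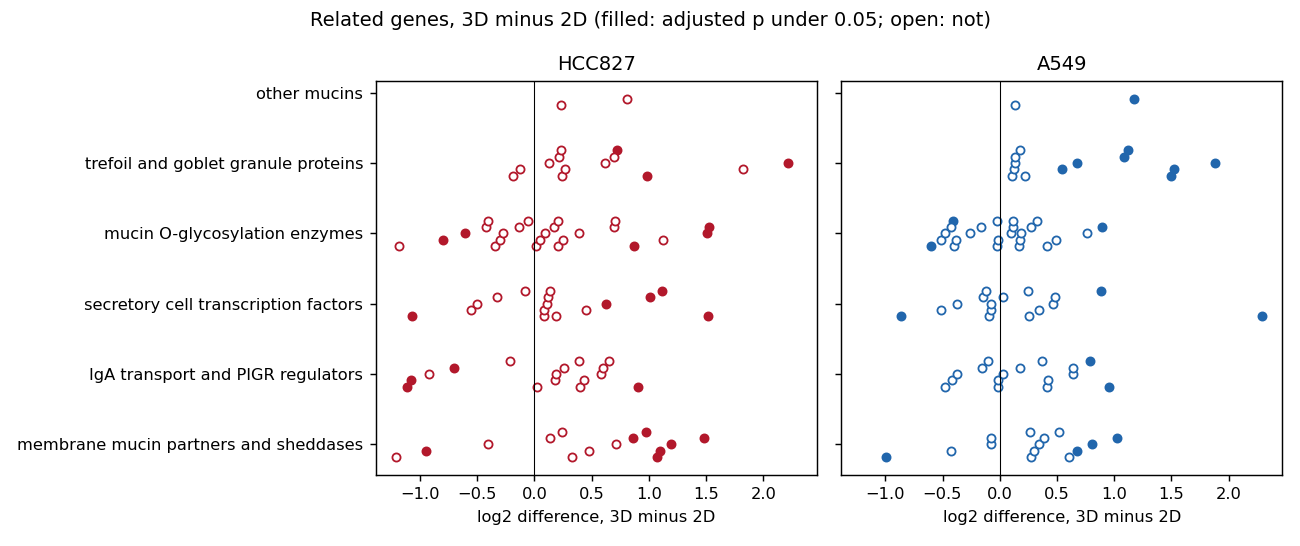
Log2 difference between 3D and 2D (horizontal axis) of the tested genes of the 6 lists in HCC827 (left) and A549 (right), where filled points have an adjusted p under 0.05. The called trefoil and goblet granule genes, 3 in HCC827 and 7 in A549, lie above 0, and uncalled genes of that list lie on both sides in HCC827. Vertical offsets within a list only separate the points.

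The enzymes that build mucin O-glycans did not move together. Of 24 tested, 3 were called higher and 2 lower in 3D in HCC827, and 1 and 2 in A549, with medians of 0.07 and 0.04, where 19.7% and 13.7% of all tested genes were called in HCC827 and 16.3% and 6.01% in A549. GALNT6, which adds the first sugar, rose in HCC827 by 1.52 ± 0.13 and B3GNT6, which builds the core 3 branch, by 1.51 ± 0.24. C1GALT1, the core 1 synthase, fell in HCC827 by 0.80 (difference -0.80 ± 0.19), and its chaperone C1GALT1C1 fell in A549 by 0.60 (difference -0.60 ± 0.13). Between lines 7 were higher and 9 lower in HCC827 (22.0% and 26.1% of all), among them GALNT3 (2.97 ± 0.34) and the mucin-type branching enzyme GCNT3 (-4.06 ± 0.24). GALNT3 lay between 6.38 and 6.91 in A549, at background, so its fitted difference is not a measured size.

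Of 16 tested transcription factors of secretory cells, 4 were called higher and 1 lower in 3D in HCC827 (19.7% and 13.7% of all tested genes), and 2 and 1 in A549 (16.3% and 6.01% of all). SPDEF, which drives goblet cell differentiation, had 8.92 and 10.01 in HCC827 3D against 8.38 and 8.53 in HCC827 2D, a rise of 1.01 ± 0.27 (adjusted p = 0.0496). SOX2 rose in both lines (1.51 ± 0.11 and 0.88 ± 0.11), and XBP1, a factor of the secretory stress response, fell in both (differences -1.07 ± 0.17 and -0.86 ± 0.17). CREB3L1, another factor of secretory capacity, rose in A549 by 2.29 ± 0.13 and lay between 6.54 and 6.65 on the HCC827 arrays. NKX2-1, the lung lineage factor, was called higher in HCC827 than in A549, where it lay between 6.16 and 6.56, below the background mean. It rose in HCC827 3D by 1.12 ± 0.18.

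PIGR is known to be induced through NF-kB, interferon and STAT6 signalling. Of 16 tested genes of IgA transport and PIGR control, 1 was called higher and 3 lower in 3D in HCC827 (19.7% and 13.7% of all tested genes), and 2 and 0 in A549 (16.3% and 6.01% of all). NFKB2 rose in both lines (0.91 ± 0.18 and 0.79 ± 0.18) and RELB in A549 (0.96 ± 0.15), where PIGR was below the background mean. In HCC827 RELB differed by 0.39, NFKB1 by 0.02, STAT6 by 0.58, IRF1 by -0.21 and MYD88 by -0.93, none called. RAB11A and MYO5B, a small GTPase and a motor of apical recycling, and the kinase YES1, which acts in transcytosis, fell in HCC827 (differences -1.12 ± 0.26, -0.71 ± 0.17 and -1.08 ± 0.14). JCHAIN, which joins IgA into the dimers that PIGR binds, lay between 7.17 and 7.58 on all arrays.

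Of 14 tested partners and sheddases of membrane mucins, 6 were called higher and 1 lower in 3D in HCC827, and 3 and 1 in A549, with medians of 0.59 and 0.32. Over all tested genes 19.7% and 13.7% were called higher and lower in HCC827, and 16.3% and 6.01% in A549. ERBB2, which MUC4 can bind, rose in both lines (1.48 ± 0.13 and 1.02 ± 0.13), and ERBB3 in HCC827 (1.07 ± 0.13). EZR, which links MUC16 and other membrane proteins to actin, rose by 0.86 in HCC827 and by 0.81 ± 0.13 in A549, and MSLN, the ligand of MUC16, rose in A549 by 0.68 ± 0.09. ADAM10, a sheddase, fell in both lines (differences -0.95 in HCC827 and -0.99 ± 0.12 in A549). MMP14, of the same list, rose in HCC827 by 0.98 and differed by 0.28 in A549 without a call. In HCC827 and A549, ADAM17 differed by 0.48 and 0.60, MMP7 by -1.21 and -0.43 and ADAM9 by -0.40 and 0.30, none called.

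Genes near these loci, by the order of the RefSeq table or, for AP2A2 and TFRC, from a list of neighbours, did not all move with them. On chromosome 11, TOLLIP, beside MUC5B, differed between cultures by 0.27 ± 0.08 (adjusted p = 0.0577), BRSK2, the next gene, rose by 0.25 ± 0.07 (adjusted p = 0.0469), and AP2A2 rose by 1.01 ± 0.09 (adjusted p = 0.00483). TNK2, near MUC4 and MUC20, rose in HCC827 (1.2 ± 0.14) and in A549 (0.86 ± 0.14), whereas PPP1R2, near MUC20 on the other side, fell in HCC827 (difference -0.72 ± 0.13). TFRC, listed as a neighbour of MUC4 and MUC20, fell over both lines (difference -1.31 ± 0.29, adjusted p = 0.0253) and in HCC827 (difference -1.72 ± 0.41). THBS3, beside MUC1, rose by 1.25 ± 0.24 in HCC827 and 1.11 ± 0.24 in A549, and TRIM46, on its other side, was not called in either. C1orf116, near PIGR, rose in HCC827 (0.66 ± 0.16) and differed by 0.60 ± 0.16 in A549 (adjusted p = 0.0602).

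Markers of other cell types were read beside these genes. The summed linear signal of 5 goblet or club markers lay between 2110 and 4341 on the HCC827 3D arrays and between 924 and 1592 on the 2D arrays, and between 22841 and 26446 on the A549 3D arrays and 15818 and 18058 on the 2D arrays. That of 8 alveolar type II markers lay between 5631 and 8372 in 3D against 2908 and 3410 in 2D for HCC827, and between 2668 and 2765 against 1450 and 1532 for A549. Within this list ABCA3 and NAPSA rose in HCC827 3D and LAMP3 fell (difference -0.86 ± 0.16, adjusted p = 0.0242). The 6 leukocyte or plasma cell markers summed to between 673 and 692 in 3D against 654 and 668 in 2D for HCC827, and to between 837 and 913 against 772 and 805 for A549. The 5 ciliated markers summed to between 680 and 733 in 3D against 610 and 611 in 2D for HCC827, and to between 1034 and 1103 against 738 and 753 for A549. The 4 basal markers summed to between 904 and 1544 against 960 and 1218 for HCC827, and to between 951 and 991 against 642 and 716 for A549. The 6 fibroblast markers summed to between 644 and 738 against 832 and 1480 for HCC827, and to between 557 and 596 against 610 and 707 for A549. The 5 endothelial markers summed to between 714 and 772 against 590 and 618 for HCC827, and to between 598 and 683 against 575 and 610 for A549. Only 3 goblet or club, 3 leukocyte or plasma cell, 2 ciliated, 2 fibroblast and 2 endothelial markers passed the filter, so these sums include markers below it. Single genes also weigh on them: LUM, a fibroblast marker, had a log2 signal of 9.93 on the HCC827 2D control array. AGR2, a goblet or club marker, was not called between HCC827 cultures. The part of these marker genes in the mucin and PIGR differences was not tested.

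Gefitinib gave no call for any of these genes in the fit over all 8 arrays. In HCC827, in A549 and in the difference between them, 0% of the tested genes were called, with 487, 86 and 348 genes at an unadjusted p under 0.05. A spread that holds the opposite responses of the HCC827 pairs enters every one of these tests. The values themselves differed in size between genes and pairs.

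In A549 the largest fall of all 11926 genes belonged to TFF1. Its gefitinib arrays were below the control arrays by 0.77 in 3D and 1.28 in 2D (mean difference -1.02 ± 0.17, unadjusted p = 0.00286, adjusted p = 1.00). MUC5B ranked 2nd from the bottom, with differences of -0.31 in 3D and -1.07 in 2D (mean -0.69 ± 0.45, adjusted p = 1.00). For scale, the SD of the gefitinib difference over all tested genes was 0.165 in each A549 culture. MUC16 differed by 0.35 in 3D and 0.34 in 2D, and MUC4, MUC20 and PIGR were at background. Without the HCC827 2D arrays 2 of 11804 genes were called in A549 (0.0169%), ALPK2 (0.71 ± 0.09) and TFF1 (-1.02 ± 0.12, adjusted p = 0.0477). MUC5B then had an adjusted p of 0.197. With 1 HCC827 array left out, TFF1 was called in some fits and not in others. With 1 A549 array left out it was not called.

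In HCC827 3D, MUC5B fell furthest, with 9.18 in the gefitinib array against 10.94 in the control array. A fit without the HCC827 2D arrays called 27.2% of all tested genes in HCC827 3D, with the spread taken from A549. It called MUC5B (-1.77 ± 0.21, adjusted p = 2.31e-04), MUC1 (-0.50 ± 0.13, adjusted p = 0.0180), PIGR (-0.48 ± 0.12, adjusted p = 0.0165) and, upward, MUC20 (0.71 ± 0.12, adjusted p = 0.00190). The differences of MUC4 (-0.09 ± 0.13), MUC16 (0.14 ± 0.12), TFF1 (-0.21 ± 0.16) and MUC13 (-0.34 ± 0.12, adjusted p = 0.0623) were not called. PIGR lay below the background mean on all 4 A549 arrays and MUC20 on 3 of them. Their errors and p-values in this fit therefore rest on spread at background, not at their HCC827 levels. The SD over all tested genes was 0.416 in this pair, around a median of -0.11, and PIGR lay within 1 SD of that median. Its arrays also differed in 3' minus 5' signal, with GAPDH at 1.57 (gefitinib) and 0.97 (control) and actin at 2.64 and 2.34. The part of this in the calls was not tested.

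In HCC827 2D, the array labelled gefitinib minus the array labelled control gave 0.59 for MUC20, 0.48 for MUC13, -0.30 for MUC4, -0.21 for PIGR and -0.13 for MUC5B. MUC20 thus had the same sign in both HCC827 pairs as labelled (mean 0.65 ± 0.09, 25th highest of 11926 genes, adjusted p = 0.926), and if the labels of the 2D pair were exchanged its signs would differ. MUC5B was below its control array in all 4 pairs as labelled, by 1.77 and 0.13 in HCC827 and by 0.31 and 1.07 in A549 (3D before 2D). With the HCC827 2D labels exchanged it was below in 3 of 4.

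**Figure D5:**
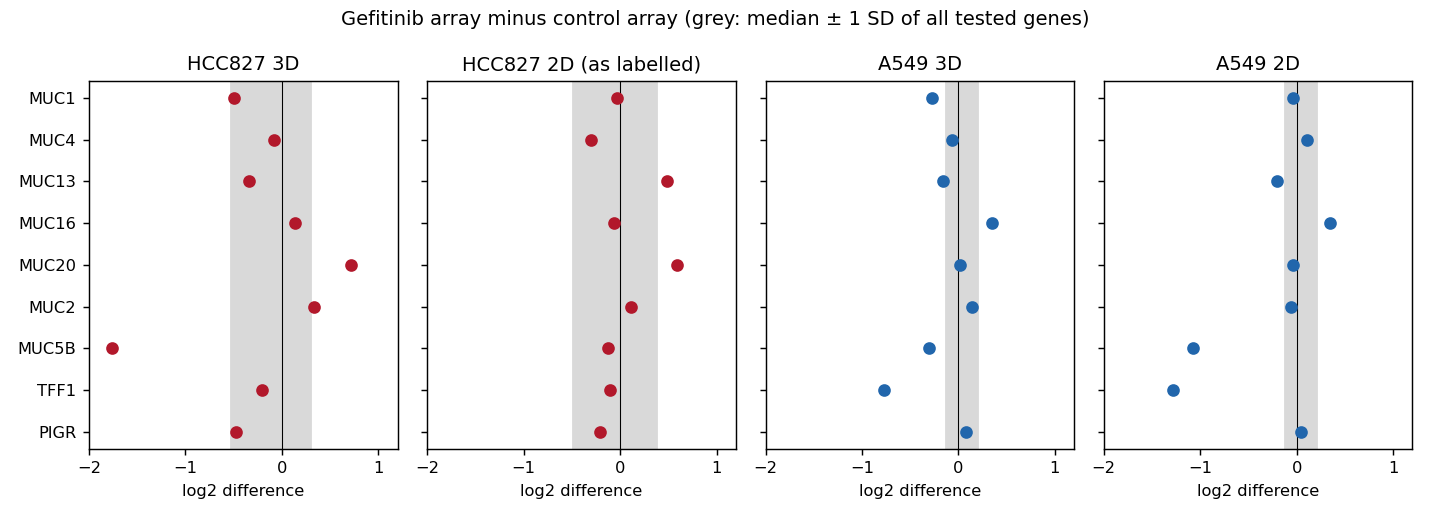
Log2 difference between the gefitinib array and the control array (horizontal axis) for each gene in each line and culture, as labelled. The grey band is the median ± 1 SD of the 11926 tested genes in that pair. TFF1, MUC5B and MUC13 lie left of the band in both A549 cultures, MUC1 in A549 3D and MUC5B in HCC827 3D. MUC16 lies right of it in both A549 cultures, MUC20 in both HCC827 cultures, MUC2 in HCC827 3D and MUC13 in HCC827 2D.

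Genes whose signal followed each member most closely over the 8 arrays were found by Pearson correlation, given as a description, since 2 lines and 2 cultures shape every profile. PIGR was followed most closely by NFATC4 (r = 0.995), which had 10.18 and 10.50 in HCC827 3D, 7.18 and 7.26 in HCC827 2D and 6.41 to 6.92 in A549, then by CYP2B7P (0.993) and CPLX1 (0.992). MUC4 was followed by PAIP2B (0.997), LRRC61 (0.997) and TMEM25 (0.995), and MUC16 by ZNF212 (0.998), SPIRE1 (0.997) and TRMT1 (0.994). MUC5B was followed by C9orf152 (0.992), RINL (0.991) and ALKBH6 (0.988), and TFF1 by FADS2 (0.996), HLA-DMB (0.994) and MYEOV (0.993). MUC1 was followed by PHKA1 (0.992), ZNF598 (0.991) and SEMA4C (0.989), MUC13 by CCND3, BID and HEXIM1 (all 0.990) and MUC20 by NSUN7 (0.989), OSGEP (0.988) and ZNF418 (0.987). Among the genes described here, MUC1 and MUC16 had r = 0.945, MUC4 and MUC20 0.944, and MUC5B and TFF1 0.861, each over 8 arrays.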

How the data were processed

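The authors deposited log2 signals, 1 array for each of 8 conditions and 49495 probe sets an array. The submitters' processing notes name RMA and R 3.2.1 as the authors' tools. A build was not given in the sources used here. Array medians lay between 7.27 and 7.34, and no further normalization was done. The number of arrays limits the precision. The platform annotation gave 1 symbol to 45278 probe sets, several to 1333 (left out) and none here to 2682, beside 202 control probe sets. Genes above the array median on at least 2 arrays were tested (11926 of 18244).

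A model with 6 coefficients (line, culture, treatment, line by culture and line by treatment, with a mean) was fitted by limma (version 3.58.1, R 4.3.3), using eBayes with trend, on 2 residual degrees of freedom and 2.36 from the prior, for 8 contrasts. Tests were two-sided, with Benjamini-Hochberg adjustment over all tested genes or probe sets. Comparisons share arrays. The fit was tested on simulated data. Tables used Python 3.11.15 and pandas 2.3.3.

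Named are all members with values, up to 4 called genes a list and contrast with the largest change (2 where none was called), 4 genes for the gefitinib labels, and for each member the 3 genes of highest correlation. Neighbours on the chromosome, CDKN2A, JCHAIN, ALPK2 and the culture values of ADAM9, ADAM17, MMP7 and MMP14 were chosen after values were seen. So were the HCC827 culture values of RELB, NFKB1, STAT6, IRF1 and MYD88. The background measure and its bounds were added after values were seen. Members and lists were chosen with earlier results of these data known. Alternatives were 1 probe set a gene by variance or mean, other filters, cyclic loess, quantile normalization, other variance priors, an additive model and fits without arrays.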

Additional observations from a re-analysis of the deposited data

Results flagged for a closer look

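MUC4 stood out for a culture difference that ran opposite ways in the lines: both HCC827 pairs were higher in 3D (2.83 and 2.62) and both A549 pairs lower (-0.26 and -0.08). The HCC827 mean minus the A549 mean was 2.895, and the interaction had an adjusted p of 0.0974 (limma), so it missed the threshold, and all 4 A549 values lay below the background mean. PIGR stood out for gefitinib: both HCC827 pairs as labelled were lower (-0.48 in 3D and -0.21 in 2D) and both A549 pairs slightly higher (0.08 and 0.04). The difference between the lines was -0.402 (adjusted p = 0.997, limma), and it rests on the labels of the HCC827 2D arrays and on signals at background outside HCC827 3D. Without both HCC827 2D arrays the PIGR difference was -0.54 and was called, with a spread taken from A549 signals below the background mean.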

How the results depend on the processing

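No paired analysis was possible because the labels give no replicate numbers and each condition has 1 array. No called difference changed sign under any alternative, and 10 differences without a call did under at least 1. Without any 1 of the 4 A549 arrays the spread comes from HCC827 alone, and without an HCC827 array from A549 alone, and the counts move between these ends. Leaving out 1 array in turn gave 1780 to 8557 genes called between lines (5736 with all arrays, and 7 or 8 of the mucin, TFF1 and PIGR genes). It gave 0 to 8819 genes and 0 to 8 of these for 3D against 2D over both lines, 0 to 7694 and 0 to 7 in HCC827, 0 to 7652 and 0 to 6 in A549, and 0 to 4533 and 0 to 6 for the difference between lines. For gefitinib it gave 0 to 3253 and 0 to 4 in HCC827, 0 to 2 and 0 to 1 in A549, and 0 to 2478 and 0 to 4 for the difference between lines. Probe sets called for culture numbered 3591 to 20093 (14506 with all arrays). Without both HCC827 2D arrays the counts were 7626 genes for culture in A549, 3207 genes and 4 of these for gefitinib in HCC827 3D, 2 and 1 in A549, and 2433 and 4 for the difference. PIGR was not tested without either HCC827 3D array, since it then failed the filter. Taking the probe set of largest variance gave 4669 genes for culture in A549, and MUC13 over both lines was then called (adjusted p = 0.0469); the cause was not tested. In the additive fit MUC4, MUC20 and TFF1 lost their call over both lines (adjusted p = 0.0979, 0.0560 and 0.100) and MUC13 gained one (0.0390). Quantile normalization moved the share of HCC827 culture calls that were higher from 58.9% to 69.7%, and the median interaction of culture with line by 0.12, cyclic loess by 0.10 and, for gefitinib, by 0.13. The additive fit gives values for the line and the mean culture difference only, and the fit without both HCC827 2D arrays for A549 culture and for gefitinib only. Signals at or below the arrays' background mean, as of PIGR and MUC4 in A549 and of MUC2 in 2D, leave changes there undetectable.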
